A study of Mus musculus with 6 samples.

Results

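The 10 genes described here encode the enzymes and core subunits that place or remove DNA methylation and Polycomb marks: the DNA methyltransferases Dnmt1, Dnmt3a and Dnmt3b, the 5-methylcytosine oxidases Tet1, Tet2 and Tet3, the Polycomb repressive complex 2 (PRC2) subunits Ezh2, Eed and Suz12, and the Polycomb repressive complex 1 (PRC1) subunit Bmi1. They were chosen by name, with earlier results of these data known. Every probe set that the platform annotation gives to 1 of these symbols alone was taken. This gave 28 of the 45101 probe sets on the array and 10 of the 18194 annotated genes. Their RNA was read on 6 Affymetrix arrays from islets, the clusters of endocrine cells in the pancreas, taken from wild-type OF-1 males on postnatal day 30. The pregnant mothers had been dosed with bisphenol-A, an estrogenic compound used to make plastics, at 10 µg/kg/day (BPA10) or 100 µg/kg/day (BPA100), or with vehicle, from gestation day 9 to 16. Each group had 2 arrays. Both BPA100 arrays were from single mice, BPA10 replicate 1 was from 1 mouse and replicate 2 pooled 2, and vehicle replicate 1 pooled 5 mice while replicate 2 was from 1. The labels do not give the litters, so p-values measure only the spread between these arrays. The study asked how exposure before birth affects beta-cell growth in early life, and the comparison made here is whether RNA of the machinery that maintains silent chromatin differed between the dose groups a month after birth.

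DNA methylation is laid down on cytosines that stand before a guanine (CG). Dnmt3a and Dnmt3b add it to unmodified DNA, Dnmt1 copies it to the new strand after replication, and the Tet enzymes oxidise it, which leads to its loss. PRC2, in which Ezh2 is the catalytic subunit and Eed and Suz12 are required partners, methylates a lysine in the tail of histone H3. PRC1, which holds Bmi1 and the ubiquitin ligases Rnf2 or Ring1, modifies histone H2A, and both complexes keep developmental genes silent. In mouse beta cells, Ezh2 and Bmi1 are known to hold the cell cycle inhibitor gene Cdkn2a silent in young animals, Dnmt1 is known to help maintain beta-cell identity, and Dnmt3a is known to silence metabolic genes such as Hk1 and Ldha as beta cells mature.

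The promoters of these genes can be read for CG and for binding letters of a cell cycle factor. RefSeq (GRCm38.p6) gave windows of 300 bases, 250 before and 50 after an annotated start, for all 10 genes, 14 windows in all, with 3 each for Dnmt1 and Dnmt3a. CG occurred 2 to 57 times per window, with a median of 26.5, against a median of 7 over all 32851 windows of 27025 genes. The cell cycle factors of the E2F family bind sites written here as TTTCCCGC, TTTGGCGC, TTTCGCGC or TTTGCCGC on either strand. Such letters stood in 3 of the 14 windows, 1 each of Dnmt1, Ezh2 and Suz12, and in 2.265% of all windows. Each of these sites holds a CG, which is more frequent in the windows of these genes, and some Dnmt3a windows overlap. The shares are therefore not a like comparison. These 3 windows are shown with the E2F letters in capitals, because cell division genes stood higher on the treated arrays. GCGCGAAA in the Dnmt1 window is TTTCGCGC read on the other strand. The Tet2 window is shown with CG in capitals, because Tet2 had the smallest p among the main probe sets and its window held the most CG. A match describes the letters only.
Ezh2, chr6:47594981-47595280, minus strand: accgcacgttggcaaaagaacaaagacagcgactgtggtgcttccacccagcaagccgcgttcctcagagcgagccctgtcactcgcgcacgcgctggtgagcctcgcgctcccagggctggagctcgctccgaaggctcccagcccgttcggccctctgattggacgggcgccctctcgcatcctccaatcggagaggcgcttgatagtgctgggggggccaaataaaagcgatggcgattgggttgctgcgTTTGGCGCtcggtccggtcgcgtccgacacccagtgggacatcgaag
Suz12, chr11:79992856-79993155, plus strand: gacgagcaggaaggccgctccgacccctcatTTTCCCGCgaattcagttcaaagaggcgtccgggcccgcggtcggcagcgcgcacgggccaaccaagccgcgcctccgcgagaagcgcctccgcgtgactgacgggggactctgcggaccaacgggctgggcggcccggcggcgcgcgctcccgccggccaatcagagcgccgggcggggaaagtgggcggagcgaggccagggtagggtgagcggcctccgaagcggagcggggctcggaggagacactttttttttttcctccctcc
Dnmt1, chr9:20952574-20952873, minus strand: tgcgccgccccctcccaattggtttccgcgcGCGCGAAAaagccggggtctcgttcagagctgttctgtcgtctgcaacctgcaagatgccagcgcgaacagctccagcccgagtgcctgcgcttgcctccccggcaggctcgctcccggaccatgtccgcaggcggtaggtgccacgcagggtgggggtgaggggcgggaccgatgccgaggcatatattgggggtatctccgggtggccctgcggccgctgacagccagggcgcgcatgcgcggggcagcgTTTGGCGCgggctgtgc
Tet2, chr3:133544341-133544640, minus strand: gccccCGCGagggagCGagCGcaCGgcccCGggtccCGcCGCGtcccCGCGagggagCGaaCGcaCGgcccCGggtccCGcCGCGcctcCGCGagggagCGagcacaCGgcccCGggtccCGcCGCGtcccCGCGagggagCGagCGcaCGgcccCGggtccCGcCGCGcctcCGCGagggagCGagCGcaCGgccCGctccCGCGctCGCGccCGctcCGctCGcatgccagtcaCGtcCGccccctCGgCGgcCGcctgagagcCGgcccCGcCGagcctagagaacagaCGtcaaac
The Tet2 window held 57 CG, more than 99.85% of all windows, and the Ezh2, Suz12 and Dnmt1 windows shown held 31, 41 and 33.

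The values are linear MAS5 signals, 1 per probe set and array, scaled so that every array has the same trimmed mean. They show a gene's share of an array's signal, and in whole islets fewer cells of a type and less RNA per cell cannot be told apart. Median signals lay between 33 and 40. Over the 27022 probe sets tested, arrays of the same group correlated at 0.968 and all pairs between 0.945 and 0.975. A probe set was tested if its mean log2(signal + 1) reached the 40th percentile of the non-control probe sets, which corresponds to a signal of about 23.3. Of the 28 probe sets, 26 passed. Those that did not were the only probe set of Tet3, with signals of 4 and 3 in vehicle islets, 4 and 2 in BPA10 islets and 3 and 6 in BPA100 islets, and a second probe set of Eed (1453830_at, 13 to 25 on the 6 arrays). Tet3 RNA was therefore not measured at a usable level. For each gene the brightest probe set is called the main one. Signals of different probe sets are not compared with each other, since each set of oligonucleotides binds with its own strength.

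**Figure D1:**
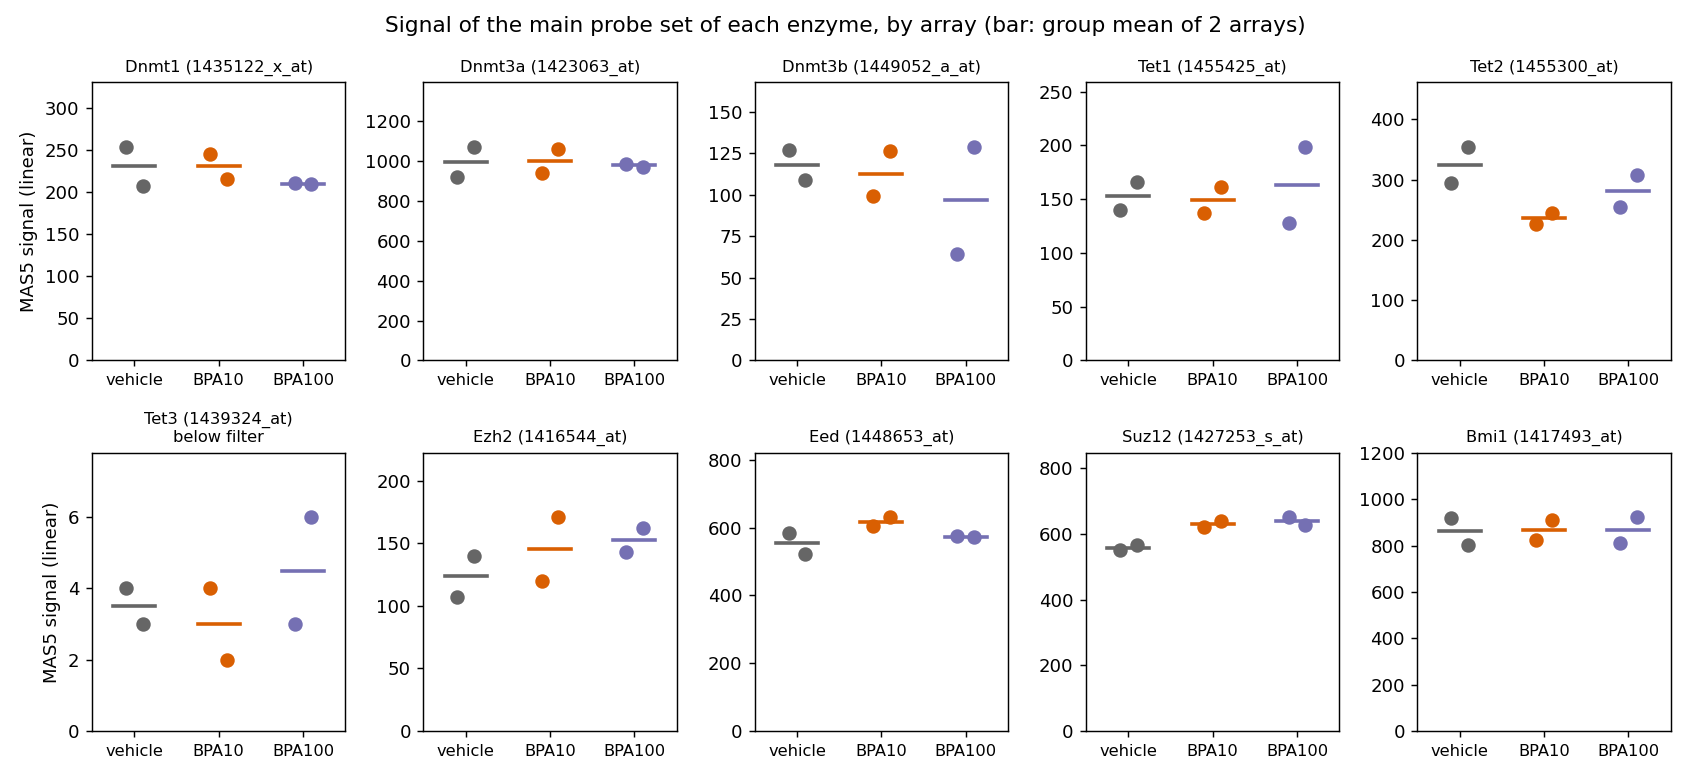
Linear MAS5 signal of the main probe set of each of the 10 genes, with a point per array and a bar at the mean of the 2 arrays of each dose group; each vertical axis starts at 0. Most points of a gene lie close together, the BPA10 points of Tet2 (227 and 245) lie below its vehicle points (295 and 355), and Tet3 stays at signals of 2 to 6.

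Among the DNA methyltransferases, the main probe sets of Dnmt1 and Dnmt3a were nearly level across the dose groups. Dnmt1 (1435122_x_at) had signals of 254 and 207 in vehicle islets, 245 and 216 in BPA10 islets and 211 and 209 in BPA100 islets. The vehicle arrays span both BPA10 arrays and the BPA100 arrays as well. The difference in log2 mean was 0.0046 ± 0.17 (limma standard error, SE, with 2 arrays a group) for BPA10 minus vehicle and -0.13 ± 0.17 for BPA100 minus vehicle, with 95% intervals of 0.766 to 1.31 and 0.70 to 1.20 as folds. Dnmt3a (1423063_at) had 920 and 1072 in vehicle islets, 941 and 1061 in BPA10 islets and 984 and 970 in BPA100 islets. Every treated array lay between the vehicle arrays, and the folds over vehicle were 1.01 (0.813 to 1.25) for BPA10 and 0.984 (0.795 to 1.22) for BPA100. Dnmt3b (1449052_a_at) had 127 and 109 in vehicle islets, 99 and 126 in BPA10 islets and 64 and 129 in BPA100 islets. The low value on BPA100 replicate 1 made the BPA100 arrays differ from each other by more than they differed on average from vehicle (-0.37 ± 0.32, fold interval 0.466 to 1.29). None of these differences passed.

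Other probe sets of Dnmt3a did not all follow the main one. Probe set 1423066_at had 205 and 240 in BPA10 islets and 216 and 233 in BPA100 islets, and 298 and 448 in vehicle islets. All 4 treated arrays lay below both vehicle arrays, and the vehicle arrays stood well apart from each other. The difference was -0.72 ± 0.21 for BPA10 (limma unadjusted p = 0.0086, adjusted p = 0.592) and -0.70 ± 0.21 for BPA100 (unadjusted p = 0.0097, adjusted p = 1). Without vehicle replicate 2 these differences were -0.42 and -0.41. Probe set 1423065_at was below vehicle without overlap in BPA100 islets (105 and 100, against 113 and 184), 1460324_at in BPA10 islets (196 and 182, against 197 and 305), and 1423064_at overlapped vehicle at both doses (74 and 41 in BPA10 islets and 51 and 42 in BPA100 islets, against 56 and 40 in vehicle islets). Vehicle replicate 2 held the higher of the vehicle values in 4 of the 5 Dnmt3a probe sets. The remaining probe sets of Dnmt1 (1422946_a_at at 195 to 231 and 1447877_x_at at 71 to 99 on the 6 arrays) and of Dnmt3b (1418351_a_at at 35 to 71) gave no difference with an unadjusted p under 0.05.

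Tet2 had lower means at the lower dose than in vehicle islets at both of its probe sets, and neither difference passed. Its main probe set, 1455300_at, had 227 and 245 in BPA10 islets and 254 and 307 in BPA100 islets, and 295 and 355 in vehicle islets. The BPA10 arrays lay below both vehicle arrays, as they did for 18.6% of all tested probe sets, and 1 BPA100 array lay between the vehicle arrays. The difference was -0.45 ± 0.17 for BPA10 (fold 0.73, interval 0.557 to 0.956; limma unadjusted p = 0.0272, adjusted p = 0.68) and -0.21 ± 0.17 for BPA100 (fold 0.863, interval 0.659 to 1.13, adjusted p = 1). The second Tet2 probe set, 1438781_at, had 102 and 64 in BPA10 islets and 92 and 125 in BPA100 islets, against 110 and 146 in vehicle islets. Its differences were -0.64 ± 0.29 and -0.24 ± 0.29, so both probe sets had the same sign at both doses. For BPA10 at the main probe set, the unadjusted limma p was 0.0277 with quantile normalization and 0.0997 with median centring. BPA100 minus BPA10 was 0.24 ± 0.17 at the main probe set (adjusted p = 0.964), so that the dose groups were not shown to differ.

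Tet1 gave different pictures at different probe sets. The main one, 1455425_at, had 140 and 166 in vehicle islets, 137 and 161 in BPA10 islets and 128 and 199 in BPA100 islets, and differed from vehicle by -0.04 ± 0.24 and 0.07 ± 0.24. The dimmer 1429448_s_at had 23 and 44 in BPA10 islets and 31 and 65 in BPA100 islets, against 63 and 112 in vehicle islets. Its BPA10 arrays were below both vehicle arrays and its BPA100 arrays overlapped them. The difference was -1.37 ± 0.47 for BPA10 (limma unadjusted p = 0.0175, adjusted p = 0.656), the largest of any of the 26 probe sets in that comparison, and -0.89 ± 0.47 for BPA100. Replicate 2 was brighter than replicate 1 in each group there. Of the other dim Tet1 probe sets, 1419896_at was above vehicle without overlap in BPA100 islets (37 and 48, against 33 and 25) and 1419897_at below it in BPA10 islets (22 and 14, against 24 and 35).

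**Figure D2:**
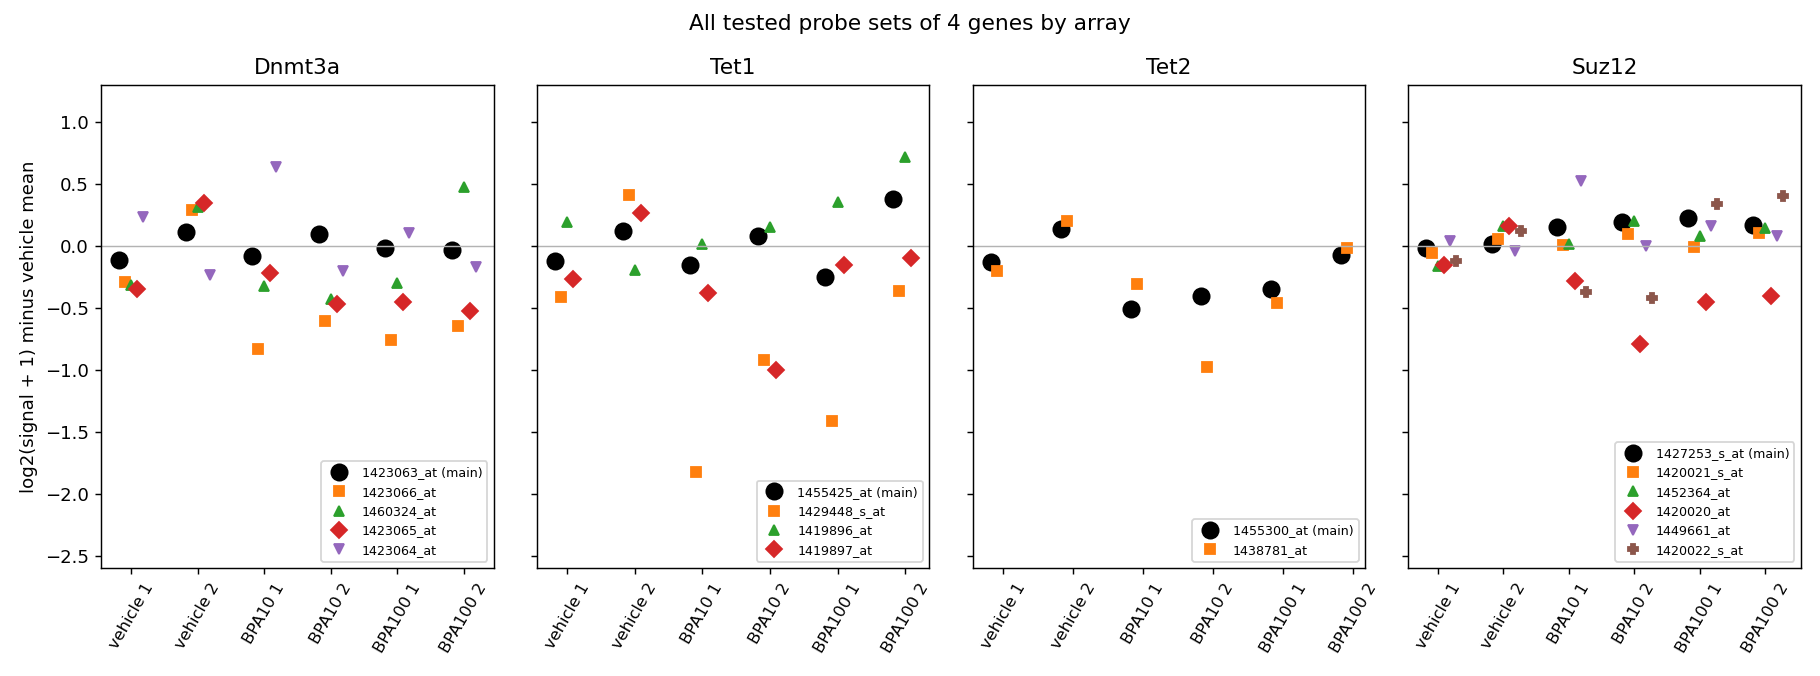
log2(signal + 1) minus the vehicle mean for every tested probe set of Dnmt3a, Tet1, Tet2 and Suz12 on each of the 6 arrays; large black points are the main probe set. Probe sets 1423066_at and 1423065_at of Dnmt3a, 1429448_s_at and 1419897_at of Tet1, both probe sets of Tet2 and 1420020_at of Suz12 lie below 0 on all 4 treated arrays. Probe sets 1427253_s_at (main), 1452364_at and 1449661_at of Suz12 and 1419896_at of Tet1 lie above 0 on all 4, in part only just.

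The PRC2 genes had somewhat higher means in treated than in vehicle islets at their main probe sets, and no difference passed. For BPA10 the direction turned for Ezh2 with only the arrays of 1 mouse (-0.22) and without BPA10 replicate 2 (-0.028), and for Eed (-0.16) and Suz12 (-0.056) when all probe sets of the gene were averaged. Ezh2 (1416544_at, its only probe set) had 120 and 171 in BPA10 islets and 143 and 162 in BPA100 islets, against 107 and 140 in vehicle islets. The BPA100 arrays lay above both vehicle arrays, by 3 signal units at the nearest, and 1 BPA10 array lay between them. The difference was 0.23 ± 0.23 for BPA10 (fold 1.17, interval 0.808 to 1.69) and 0.31 ± 0.23 for BPA100 (fold 1.24, interval 0.858 to 1.80). Suz12 (1427253_s_at) had 622 and 639 in BPA10 islets and 651 and 628 in BPA100 islets, against 551 and 565 in vehicle islets. All 4 treated arrays lay above both vehicle arrays, as 7.17% of tested probe sets did. The size was small: 0.18 ± 0.12 for BPA10 (fold 1.13, 0.929 to 1.37) and 0.20 ± 0.12 for BPA100 (fold 1.15, 0.942 to 1.39). Eed (1448653_at) had 604 and 631 in BPA10 islets and 575 and 571 in BPA100 islets, against 585 and 522 in vehicle islets. Only the BPA10 arrays lay above both vehicle arrays (0.16 ± 0.13, fold 1.12, 0.908 to 1.37), and BPA100 minus vehicle was 0.05 ± 0.13.

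Suz12 had 5 further probe sets. The bright ones, 1420021_s_at (532 and 578 in vehicle islets, 557 and 593 in BPA10 islets, 552 and 597 in BPA100 islets) and 1452364_at (275 and 343, 310 and 353, and 325 and 340), overlapped vehicle at both doses. Probe set 1420020_at was lower in treated islets, with 138 and 97 in BPA10 islets and 123 and 127 in BPA100 islets, against 151 and 188 in vehicle islets. Its difference was -0.54 ± 0.22 for BPA10 (limma unadjusted p = 0.0413, adjusted p = 0.688), opposite in sign to that of the main probe set. Probe set 1420022_s_at had 43 and 45 in BPA100 islets, against 26 and 25 in BPA10 islets, a difference of 0.76 ± 0.31 (limma unadjusted p = 0.0362, adjusted p = 0.964) and the only one between the doses with an unadjusted p under 0.05. Its vehicle values of 31 and 37 stood between the dose groups. The dim 1449661_at lay between 32 and 48.

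Bmi1, the PRC1 member, was level. Its main probe set, 1417493_at, had 921 and 803 in vehicle islets, 826 and 910 in BPA10 islets and 812 and 924 in BPA100 islets. The dose groups overlapped throughout, and the folds over vehicle were 1.01 (0.809 to 1.26) for BPA10 and 1.01 (0.808 to 1.26) for BPA100. Its other probe set, 1448733_at, had 720 and 688 in vehicle islets, 570 and 758 in BPA10 islets and 663 and 797 in BPA100 islets.

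**Figure D3:**
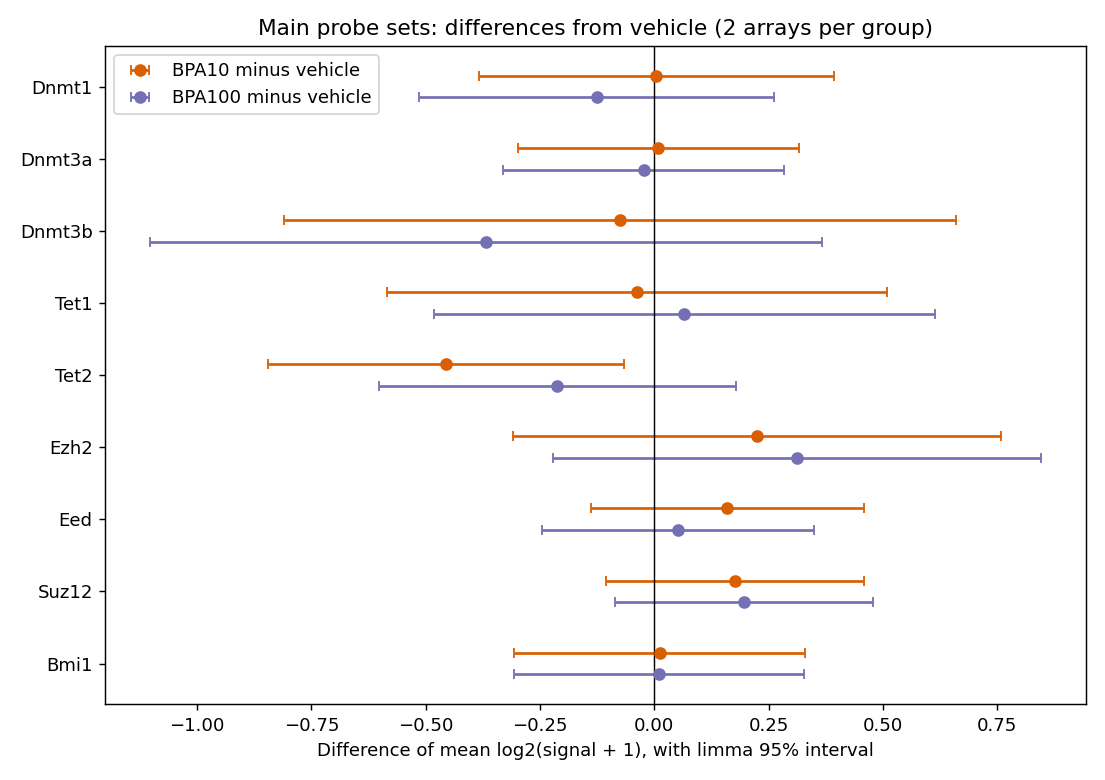
Difference in mean log2(signal + 1) from vehicle for the 9 tested main probe sets, BPA10 and BPA100, with limma 95% intervals (2 arrays per group, spread estimated over all 6 arrays). Only the BPA10 interval of Tet2 excludes 0 before adjustment over all probe sets, and the intervals of Dnmt3b are the widest.

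The main probe sets differed in how much they varied from array to array. Over the 6 arrays the standard deviation (SD) of log2(signal + 1) was 0.09 for Dnmt3a, 0.09 for Eed, 0.10 for Bmi1 and 0.10 for Suz12. Among tested probe sets within 0.5 log2 units of the same level, only 15.8%, 13.7%, 19.3% and 17.9% had a smaller SD. Dnmt1 had an SD of 0.13, with 23.6% of such probe sets below it. Tet1, Ezh2 and Tet2 had 0.23, 0.25 and 0.24, with 62.2%, 67.1% and 75.4% below them. Dnmt3b varied most, at 0.38, with 86.8% of probe sets at its level less variable. The median SD was 0.25 over all 26 tested probe sets of the enzymes and 0.13 over the 9 main ones, against 0.24 over all tested probe sets. These are descriptions, and the main probe sets are the brightest of their genes.

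No probe set passed in any comparison with limma after Benjamini-Hochberg adjustment at 0.05 (0 of 27022, 0.0%, in each), and the smallest adjusted p over all probe sets was 0.182 for BPA10 against vehicle and 0.20 for BPA100 against vehicle. In BPA10 islets 11 of the 26 probe sets were higher and 15 lower than in vehicle islets, with a median difference of -0.07, against 0.0008 over all tested probe sets. By unadjusted p, 4 of the 26 were under 0.05, all lower (Dnmt3a 1423066_at, Tet1 1429448_s_at, Suz12 1420020_at and Tet2 1455300_at), and for 0 higher. Over all tested probe sets 7.08% met that criterion, 3.96% lower and 3.12% higher. Of these 4, 0 stayed under 0.05 without vehicle replicate 2, 1 (Suz12) without BPA10 replicate 1 and 2 (Dnmt3a and Tet1) without BPA10 replicate 2. The BPA10 arrays lay below both vehicle arrays for 8 of the 26 and above them for 2, where 18.6% and 17.5% of all tested probe sets did so, 36.0% in all. In 3 of the 4 genes with a lower probe set, another probe set of the gene gave a difference of the opposite sign. Tet2 was the exception.

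In BPA100 islets 12 of the 26 probe sets were higher and 14 lower than in vehicle islets, with a median difference of -0.03, against -0.0047 over all tested probe sets. Only Dnmt3a 1423066_at had an unadjusted p under 0.05, and it was not under 0.05 without vehicle replicate 2 or without BPA100 replicate 1, while 3.98% of all tested probe sets met that criterion, 1.87% lower and 2.11% higher. The BPA100 arrays lay above both vehicle arrays for 5 of the 26 and below them for 4, where 16.1% and 15.8% of all tested probe sets did so, 31.9% in all. These shares are near the background. Both comparisons use the same vehicle arrays. BPA100 minus BPA10 had a median difference of 0.02 over the 26 probe sets, with 16 higher and 10 lower, and 1 unadjusted p under 0.05, for a higher one. Of all tested probe sets 4.75% met that criterion, 2.44% higher and 2.31% lower. That probe set, Suz12 1420022_s_at, stayed under 0.05 without vehicle replicate 1 but not without any other array. With both doses pooled against vehicle, 3 of the 26 had an unadjusted p under 0.05 in limma, all lower: Dnmt3a 1423066_at (-0.71 ± 0.18), Tet1 1429448_s_at (-1.13 ± 0.40) and Suz12 1420020_at (-0.48 ± 0.19), with adjusted p of 0.722, 0.823 and 0.843. Of these 3, 0 stayed under 0.05 without vehicle replicate 2, 1 (Dnmt3a) without BPA100 replicate 1 and 2 without BPA10 replicate 1, BPA10 replicate 2 or BPA100 replicate 2. By that criterion 5.69% of all tested probe sets were under 0.05, 2.99% lower and 2.7% higher. The 4 treated arrays lay below both vehicle arrays for 2 of the 26 and above them for 1, against 7.33% and 7.17% of all tested probe sets. An exact 2-sided permutation test of a single probe set has a floor of 0.333 when 2 arrays meet 2 and of 0.0667 when 4 meet 2. The median SE for 2 arrays against 2 was 0.24, and a difference several times its SE could still fail to pass. Mki67, a marker of cycling cells, differed by 0.95 ± 0.17 for BPA10 minus vehicle, with an adjusted p of 0.315 in limma.

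The partners of these enzymes were taken from lists chosen by function, with each gene at its main probe set. These lists and those further below were chosen with earlier results of these data known. Of 25 tested partners of DNA methylation, 0 passed at either dose. In BPA10 islets 14 were higher and 11 lower (median 0.04), and in BPA100 islets 12 were higher and 13 lower (median -0.03). At either dose 0 had an unadjusted p under 0.05 in limma, against 7.08% (BPA10) and 3.98% (BPA100) of all tested probe sets. Uhrf1, which brings Dnmt1 to newly replicated DNA, had 50 and 62 in BPA10 islets and 49 and 47 in BPA100 islets, against 46 and 45 in vehicle islets (0.29 ± 0.26 and 0.08 ± 0.26). Dnmt3l, a catalytically inactive partner of Dnmt3a, was below the brightness filter at 4 to 21. The smallest p values at the lower dose were those of Mat2b, a regulatory subunit of the enzyme that makes the methyl donor (0.30 ± 0.13), and Hells, a chromatin remodeller needed for DNA methylation (0.41 ± 0.24), among the higher ones, with -0.14 at the other tested probe set of Hells, and of Gadd45a (-0.76 ± 0.33) and Gadd45b (-0.58 ± 0.52), stress-induced proteins linked to demethylation, among the lower ones, with 0.017 to 0.094 at the other probe sets of Gadd45b. At the higher dose they were those of the CG-binding zinc finger genes Cxxc5 (0.20 ± 0.13) and Cxxc1 (0.21 ± 0.19), and, lower, Trdmt1, a tRNA methyltransferase of the Dnmt family (-0.48 ± 0.21), and Gadd45b (-0.61 ± 0.52, with -0.16 to 0.12 at its other probe sets).

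Of 8 tested partners of PRC2, 6 were higher and 2 lower in BPA10 islets (median 0.07) and 5 higher and 3 lower in BPA100 islets (median 0.03), and 0 passed. Aebp2, a DNA-binding accessory subunit, had 487 and 485 in BPA10 islets and 449 and 387 in BPA100 islets, against 401 and 339 in vehicle islets. Its difference was 0.40 ± 0.15 for BPA10 (unadjusted p = 0.0292, adjusted p = 0.68 in limma) and 0.18 ± 0.15 for BPA100, but its other tested probe sets ranged from -0.57 to 0.16 at the lower dose. The histone-binding subunit Rbbp7 differed by 0.08 for BPA10, and the accessory subunits Jarid2 and Phf1 by -0.23 and -0.10, with -0.099 to 0.075 at the other probe sets of Jarid2. For BPA100, Phf19 differed by 0.30, Jarid2 by -0.15 (-0.16 to 0.25 at its other probe sets) and Ezh1, the other catalytic subunit of PRC2, by -0.15. Ezh1 had 212 and 248 in BPA10 islets and 202 and 208 in BPA100 islets, against 228 and 228 in vehicle islets. Its other tested probe set differed by -0.45 for BPA10 and -0.36 for BPA100.

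Of 20 tested partners in PRC1, 9 were higher and 11 lower in BPA10 islets (median -0.09), and 11 higher and 9 lower in BPA100 islets (median 0.05). By unadjusted p in limma 0 were under 0.05 at either dose, against 7.08% (BPA10) and 3.98% (BPA100) of all tested probe sets. The ubiquitin ligase gene Rnf2 had 738 and 864 in BPA10 islets and 853 and 1274 in BPA100 islets, against 862 and 969 in vehicle islets (-0.19 ± 0.20 and 0.19 ± 0.20). Its other tested probe set differed by 0.057 and 0.030. Ring1, a relative of Rnf2, differed by 0.07 and 0.05. For BPA10 the smallest p values were those of the DNA-binding factor Yy1 (0.14) and the scaffold subunit Phc1 (0.25) among the higher genes, and of Pcgf1 (-0.70) and Pcgf6 (-0.22), relatives of Bmi1 in other forms of PRC1, among the lower. For BPA100 they were those of Cbx2, a reader of the PRC2 mark (0.38), and Rnf2, and, lower, the corepressor Bcor (-0.24, with -0.56 to 0.18 at its other probe sets) and Pcgf2 (-0.53), another relative of Bmi1.

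Genes that oppose Polycomb, namely histone demethylases that remove the PRC2 mark, subunits of the activating methyltransferases and deubiquitinases, were lower more often than higher. Of 17 tested, 5 were higher, 11 lower and 1 equal in BPA10 islets (median -0.17) and 5 higher and 12 lower in BPA100 islets (median -0.03), and 0 passed. By unadjusted p in limma, 1 higher and 2 lower were under 0.05 for BPA10 and 0 for BPA100, against 7.08% and 3.98% of all tested probe sets. The BPA10 arrays lay below both vehicle arrays for 7 and above them for 2, against 18.6% and 17.5% of all tested probe sets. Both doses were set against the same vehicle arrays. Kmt2a, an activating histone methyltransferase, had 134 and 117 in BPA10 islets and 147 and 194 in BPA100 islets, against 224 and 189 in vehicle islets. The BPA10 arrays lay below both vehicle arrays (-0.71 ± 0.20, unadjusted p = 0.0073, adjusted p = 0.586 in limma), but its other probe set differed by 0.04. Its relative Kmt2c had 427 and 622 in BPA10 islets, against 662 and 853 in vehicle islets (-0.54 ± 0.21, unadjusted p = 0.0282, adjusted p = 0.68 in limma), with -0.62 to -0.19 at its remaining probe sets. Rbbp5, a subunit shared by these methyltransferases, was higher, with 399 and 434, against 348 and 255 in vehicle islets (0.48 ± 0.19, adjusted p = 0.68 in limma), and the deubiquitinase Usp16 differed by 0.26, with -0.18 at its other probe set. In BPA100 islets the smallest p values were those of Uty (0.23, with -0.0090 at its other tested probe set) and Ash2l (0.13) among the higher genes and of Dpy30 (-0.20) and the demethylase Kdm6b (-0.23) among the lower.

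Genes reported as targets of these enzymes in islets showed no single direction at both doses. Of 10 tested, 7 were higher and 3 lower in BPA10 islets (median 0.43) and 4 higher and 6 lower in BPA100 islets (median -0.03), and 0 passed. Cdkn2a was below the brightness filter, with 7 and 25 in BPA10 islets and 8 and 12 in BPA100 islets, against 18 and 13 in vehicle islets, so a change in it could not be measured. Its neighbour Cdkn2b, also a cell cycle inhibitor, had 158 and 150 in BPA10 islets and 126 and 123 in BPA100 islets, against 148 and 84 in vehicle islets (0.46 ± 0.26 and 0.16 ± 0.26). Ldha, a lactate dehydrogenase that mature beta cells keep low, had 359 and 246 in BPA10 islets and 209 and 160 in BPA100 islets, against 230 and 148 in vehicle islets (0.68 ± 0.27, unadjusted p = 0.0331, adjusted p = 0.686 in limma, and -0.01 ± 0.27). Hk1, a hexokinase that mature beta cells also keep low, differed by 0.09 and -0.12. Among the others, the acyl-CoA thioesterase gene Acot7 differed by 0.40 at the lower and 0.34 at the higher dose, the endocrine progenitor factor Neurog3 by -0.24 and 0.37, and the growth factor receptor gene Pdgfrb by -0.06 at the lower dose. Pdgfra differed by 0.50 at the lower and -0.55 at the higher dose, and Igfbp4, an insulin-like growth factor binding protein gene, by 0.52 and -0.18, with -0.39 to 0.41 at its other probe sets at the higher dose. For BPA100 against BPA10, 3 of the 10 were higher and 7 lower (median -0.25), and 0 passed. Of the 10, 1 higher and 4 lower had an unadjusted p under 0.05 in limma. Of all tested probe sets 4.75% met that criterion, 2.44% higher and 2.31% lower. The BPA100 arrays lay above both BPA10 arrays for 1 of the 10 and below both for 5. Such separation, in either direction, was found for 30.7% of all tested probe sets. Pdgfra and Pdgfrb are also markers of stellate cells. On BPA10 replicate 1 the 15 stellate-cell and fibroblast markers tested stood 0.70 above the vehicle mean and the target list 0.56 above it, and on BPA10 replicate 2 they stood at 0.05 and 0.02. The part of stellate cells in the values of the target list was not tested.

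Genes of dividing cells stood higher on the treated arrays. The 21 tested mitosis genes stood 0.91 and 0.95 above the vehicle mean on the BPA10 arrays and 0.68 and 0.72 above it on the BPA100 arrays, against 0.06 and -0.06 on the vehicle arrays, and 0 passed singly. Mki67, a marker of cycling cells, had 235 and 279 in BPA10 islets and 213 and 241 in BPA100 islets, against 128 and 136 in vehicle islets (0.95 ± 0.17, adjusted p = 0.315, and 0.78 ± 0.17, adjusted p = 0.921, in limma). The 21 tested S phase and replication genes stood at 0.11 and 0.28 on the BPA10 arrays and -0.03 and 0.10 on the BPA100 arrays, with Pcna, the sliding clamp of replication, at 0.16 ± 0.15 and -0.09 ± 0.15 and the helicase subunit gene Mcm2 at 0.38 ± 0.32 and -7.4e-05 ± 0.32 for BPA10 and BPA100 against vehicle. The 9 tested main probe sets of the silencing enzymes stood at -0.08 and 0.08 on the BPA10 arrays and -0.13 and 0.11 on the BPA100 arrays, against -0.02 and 0.02 on the vehicle arrays. Ezh2, Uhrf1 and Dnmt1, which many cycling cells express at higher levels, differed by 0.23, 0.29 and 0.0046 for BPA10 and by 0.31, 0.08 and -0.13 for BPA100. Whether these differences are smaller than that of Mki67 was not tested.

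**Figure D4:**
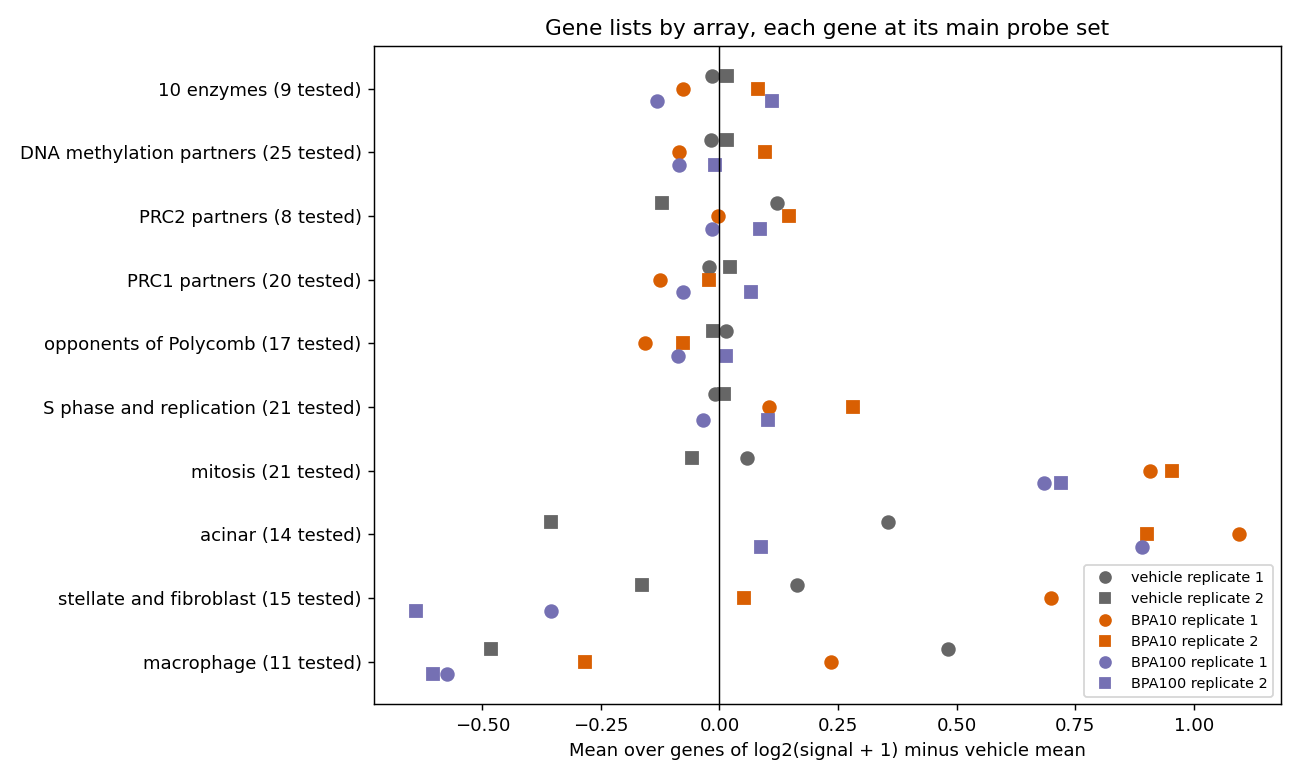
Mean over genes of log2(signal + 1) minus the vehicle mean for 10 gene lists on each array, each gene at its main probe set; colours are dose groups and shapes are replicates. The enzymes, their partners and their opponents stay between -0.16 and 0.15 on every array, the mitosis list lies between 0.68 and 0.95 on the 4 treated arrays, and the acinar, stellate and macrophage lists vary between arrays of the same group.

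Markers of other pancreatic cells were measured too, and their signals differed between arrays. The 10 islet markers found, among them Ins2, Gcg and Sst, had summed signals of 72499 and 69351 in BPA10 islets and 70257 and 58744 in BPA100 islets, against 55131 and 58930 in vehicle islets. The 14 acinar markers summed to 118013 and 110045 in BPA10 islets and 113753 and 72555 in BPA100 islets, against 85790 and 56346 in vehicle islets, and stood above the vehicle mean for 14 of 14 genes at the lower and 13 of 14 at the higher dose. The 15 stellate markers summed to 13266 and 7843 in BPA10 islets and 6840 and 5076 in BPA100 islets, against 8625 and 6815 in vehicle islets. The 12 macrophage markers summed to 3082 and 2021 in BPA10 islets and 1631 and 1775 in BPA100 islets, against 4785 and 1910 in vehicle islets. Of 7 tested duct markers 4 were higher and 3 lower in BPA10 islets and 0 were higher and 7 lower in BPA100 islets, and of 9 endothelial markers 5 were higher and 4 lower in BPA10 islets and 4 were higher and 5 lower in BPA100 islets. Few lymphocyte (4), Schwann-cell (4) and red blood cell (1) markers passed the filter, and the markers found of each list summed to 30 to 525 per array. BPA10 replicate 1 stood apart in them: relative to the vehicle mean the tested red blood cell marker was at 2.77 there and 0.20 on BPA10 replicate 2, the lymphocyte markers at 1.12 and 0.22, and the Schwann-cell markers at 0.59 and 0.26. No marker of these lists was listed at 0 on any array. The part of these cells in the values of the silencing enzymes was not tested.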

How the data were processed

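The authors deposited 1 intensity per probe set and array, a linear whole number. Per the submitters' processing notes the tool was MAS5. Its version is not given in the sources used here. Judged from the values, each array had been scaled to the same trimmed mean, so a signal is relative to the rest of its array. Of 45101 probe sets, 64 controls were left out. The platform annotation gave 1 gene to 34945 probe sets, several to 932 and none to 9160, and 34741 of the first were found in RefSeq. Of 247 gene list entries 223 were matched, 1 through a synonym, and the rest were not analysed here.

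Signals were taken as log2(signal + 1). Probe sets at or above the 40th percentile of the mean (27022) were fitted with limma 3.58.1 in R 4.3.3, with 3 group means over 6 arrays, moderated variances with an intensity trend, 3 residual and 5.40 prior degrees of freedom, 2-sided tests and Benjamini-Hochberg adjustment over all tested probe sets. The code was tested on simulated data. A gene's main probe set is its brightest. From each partner, opponent and target list, the genes named are those with the smallest p in each direction for each dose, up to 2, plus a fixed set: Uhrf1, Dnmt3l, Ezh1, Rnf2, Ring1, Cdkn2a, Cdkn2b, Ldha, Hk1, Mki67, Pcna and Mcm2. Members and lists were chosen with earlier results of these data known. Alternatives changed the scaling, pseudocount, filter, variance model, arrays used, replicate block and probe set. The number of arrays limits the precision.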

Additional observations from a re-analysis of the deposited data

How the results depend on the processing

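With limma and Benjamini-Hochberg adjustment, 0 probe sets were called in each comparison, with 1914, 1075, 1537 and 1283 at an unadjusted p under 0.05 for BPA10, BPA100 and both doses pooled, each against vehicle, and for BPA100 against BPA10. With median centring 6 were called for BPA100 and 1 for both doses, and with only the groups compared 1 for BPA10 and 4 for BPA100. Leaving out 1 array at a time gave 0 to 9 calls for BPA10 (9 without vehicle replicate 1, 1 without either BPA100 array), 0 to 5 for BPA100 (5 without vehicle replicate 1, 4 without either BPA10 array), 0 to 1 between the doses (1 without BPA10 replicate 2) and 0 to 7 for both doses (7 without vehicle replicate 1, 1 without BPA100 replicate 2). None of the differences recomputed for the named genes passed under any alternative. The replicate numbers were not taken to pair the arrays: deviations from the group mean of same-numbered arrays correlated at 0.194 for BPA10 and vehicle, 0.199 for BPA100 and vehicle and 0.080 for BPA10 and BPA100. With the replicate number as a block, 0, 7, 1 and 0 probe sets were called in these comparisons.

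Of 641 alternative values of the enzymes' probe sets 48 changed sign, as did 49 of 1021 for the other named genes. Many alternatives left the difference itself as it was, so these counts do not measure how stable the signs are. They were the filters, variance models, array weights, replicate block, only the groups compared, and leaving out an array of a group not compared. Differences of Tet2 and of main Suz12 did not change sign when arrays were left out. With the mean of all probe sets of a gene in place of the brightest, BPA10 minus vehicle changed sign for Dnmt1 (-0.056), Dnmt3a (-0.24), Eed (-0.16), Suz12 (-0.056), Bmi1 (-0.043) and Ezh1 (-0.27). There, BPA100 minus vehicle changed sign for Tet1 (-0.10), Aebp2 (-0.037), Pcgf2 (0.37), Uty (-0.22), Igfbp4 (0.13), Hk1 (0.25) and Mcm2 (0.16). There, both doses minus vehicle changed sign for Tet1 (-0.30), Eed (-0.055) and Bmi1 (-0.0075). With only the arrays of 1 mouse, BPA10 minus vehicle changed sign for Dnmt3a (-0.19), Ezh2 (-0.22), Ezh1 (-0.10), Neurog3 (0.13), Pdgfrb (0.22), Ring1 (-0.084) and Pcna (-0.036). There, BPA100 minus vehicle changed sign for Dnmt1 (0.021), Tet1 (-0.056), Ldha (0.30), Igfbp4 (0.17), Ring1 (-0.16), Hk1 (0.11) and Mcm2 (0.21). There, both doses minus vehicle changed sign for Dnmt1 (0.13), Tet1 (-0.17) and Ezh2 (-0.050). With median centring, BPA100 minus vehicle changed sign for Dnmt3a (0.013), Ldha (0.024) and Mcm2 (0.036). There, both doses minus vehicle changed sign for Dnmt3a (0.023). With quantile normalization, BPA10 minus vehicle changed sign for Rbbp7 (-0.064). There, BPA100 minus vehicle changed sign for Bmi1 (-0.0013), Ldha (0.0030) and Mcm2 (0.0042). Leaving out 1 array at a time moved many small differences across 0. For BPA10 minus vehicle the ranges that crossed 0 were -0.14 to 0.15 for Dnmt1, -0.10 to 0.12 for Dnmt3a, -0.25 to 0.098 for Dnmt3b, -0.16 to 0.085 for Tet1, -0.028 to 0.48 for Ezh2, -0.087 to 0.11 for Bmi1, -1.18 to 0.012 for Gadd45b, -0.29 to 0.099 for Phf1, -0.10 to 0.12 for Ezh1, -0.042 to 0.54 for Phc1, -0.51 to 0.026 for Neurog3, -0.33 to 0.22 for Pdgfrb, -0.14 to 0.28 for Ring1, -0.14 to 0.32 for Hk1 and -0.13 to 0.88 for Mcm2. For BPA100 minus vehicle the ranges that crossed 0 were -0.27 to 0.021 for Dnmt1, -0.13 to 0.087 for Dnmt3a, -0.87 to 0.13 for Dnmt3b, -0.25 to 0.38 for Tet1, -0.030 to 0.13 for Eed, -0.088 to 0.11 for Bmi1, -1.43 to 0.21 for Gadd45b, -0.44 to 0.14 for Jarid2, -0.14 to 0.73 for Phf19, -0.099 to 0.48 for Rnf2, -0.33 to 0.30 for Ldha, -0.53 to 0.17 for Igfbp4, -0.29 to 0.40 for Ring1, -0.25 to 0.56 for Cdkn2b, -0.35 to 0.11 for Hk1, -0.25 to 0.062 for Pcna and -0.22 to 0.22 for Mcm2. For both doses minus vehicle the ranges that crossed 0 were -0.21 to 0.086 for Dnmt1, -0.12 to 0.10 for Dnmt3a, -0.47 to 0.029 for Dnmt3b, -0.14 to 0.17 for Tet1 and -0.088 to 0.11 for Bmi1. Other differences kept their sign but moved by over 1.5 times: for BPA10 minus vehicle Eed (0.078 to 0.24), Dnmt3a 1423066_at (-1.01 to -0.42), Tet2 1438781_at (-0.97 to -0.31), Suz12 1420020_at (-0.79 to -0.29), Hells (0.21 to 0.62), Gadd45a (-1.30 to -0.23), Rbbp7 (0.035 to 0.12), Jarid2 (-0.40 to -0.053), Yy1 (0.04 to 0.24), Pcgf1 (-1.22 to -0.19), Pcgf6 (-0.34 to -0.11), Rnf2 (-0.31 to -0.081), Rbbp5 (0.26 to 0.70), Usp16 (0.13 to 0.38), Kmt2c (-0.81 to -0.27), Ldha (0.37 to 1.0), Uhrf1 (0.13 to 0.44), Cdkn2b (0.056 to 0.87) and Pcna (0.063 to 0.27). Likewise, for BPA100 minus vehicle Tet2 (-0.35 to -0.076), Ezh2 (0.12 to 0.50), Dnmt3a 1423066_at (-0.99 to -0.41), Tet2 1438781_at (-0.46 to -0.02), Cxxc1 (0.058 to 0.37), Aebp2 (0.056 to 0.30), Bcor (-0.33 to -0.16), Pcgf2 (-1.0 to -0.066), Uty (0.12 to 0.34), Ash2l (0.058 to 0.20), Dpy30 (-0.28 to -0.12), Acot7 (0.19 to 0.50), Neurog3 (0.11 to 0.63), Pdgfra (-0.80 to -0.31) and Uhrf1 (0.046 to 0.10). Likewise, for both doses minus vehicle Tet2 (-0.47 to -0.20), Ezh2 (0.076 to 0.46), Eed (0.024 to 0.19), Dnmt3a 1423066_at (-1.0 to -0.42) and Tet1 1429448_s_at (-1.54 to -0.72). No scaling moved the median of all tested probe sets by 0.1 or more. With 2 arrays a group, a difference under the standard error of its probe set could not be resolved, and differences well above it also did not pass. Dim probe sets such as those of Tet3, Cdkn2a and Dnmt3l gave no usable level.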
